A study of Mus musculus with 12 samples.

Results

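The 47 genes described here act in DNA replication and in the supply of its nucleotides, and were picked by symbol from a count table of 24421 gene rows. They cover the licensing of origins (9 genes), the MCM hexamer (6), the activation of the helicase (8), the polymerases and primase (9), the sliding clamp and its loader (6), the single-strand binding protein RPA (3), the maturation of Okazaki fragments (2) and deoxynucleotide supply (4). All 47 passed the filter on low counts and were tested together with all 15281 genes that passed it. No member had fewer than 119 counts in any library.

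The cells were E14 mouse embryonic stem cells on gelatin in medium with serum and LIF, with 3 libraries in each of 4 groups. KO paused cells and WT paused cells received the mTOR kinase inhibitor INK128 at 200 nM for 2 weeks, whereas KO FBS cells and WT FBS cells were the control cultures of the same medium without it. KO stands for a knockout of Mettl3, the catalytic subunit of the complex that places N6-methyladenosine on messenger RNA, and WT for wild type. The labels give neither the exon that was targeted nor the number of knockout clones, and they do not say whether replicates came from separate cultures, so p-values measure the spread between these libraries only. The design asks how replication genes differ between genotypes in each condition, how pausing changes them in each genotype, and whether both genotypes respond alike.

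Replication is prepared in G1, when the origin recognition complex, Cdc6 and Cdt1 load pairs of MCM rings onto DNA. At the entry into S phase the kinase Cdc7 with its activator Dbf4, together with Mcm10, Cdc45 and GINS, turns these rings into running helicases, and polymerases alpha, delta and epsilon then copy the strands with the help of PCNA, its loader RFC and RPA. Transcription of most of these genes is known to be driven by E2F factors around the G1/S border, and embryonic stem cells are known for a short G1 phase and for high levels of licensing proteins.

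Libraries held 10615548 to 39566713 counts in all. Levels are given as CPM, counts scaled to library size with TMM factors, and log2 fold changes ± SE are on the relative scale, which sets each gene against the typical gene of its library, unless the per-cell scale is named. Mettl3 itself had 25.5, 27.5 and 28.6 CPM in KO FBS, against 31.2, 37.4 and 33 CPM in WT FBS, and 28.8, 31.4 and 30 CPM in KO paused, against 35.1, 39.1 and 33.6 CPM in WT paused, so its messages were lower in the KO libraries (log2 -0.32 ± 0.1, adjusted p = 0.0134 in FBS, edgeR quasi-likelihood test) but remained present. All 10 markers of embryonic stem cells averaged over 1 CPM in every group, but their sum was lower in KO cells, at 3540 to 3840 CPM in KO paused, against 5920 to 6470 CPM in WT paused, and at 2850 to 3330 CPM in KO FBS, against 4720 to 5570 CPM in WT FBS. The largest part of this was Tfcp2l1, with means of 357 CPM in KO paused and 1480 CPM in WT paused. In FBS its means were 183 CPM in KO and 1170 ± 562 CPM in WT (SD). The markers did not all go this way. Sox2 (640 against 610 CPM) and Utf1 (219 against 196 CPM) were not lower in KO paused. Nanog (232 against 220 CPM) and Sall4 (612 against 481 CPM) were not lower in KO FBS. Extraembryonic endoderm markers summed to 264 to 268 CPM in KO paused, against 110 to 142 CPM in WT paused, and to 222 to 229 CPM in KO FBS, against 211 to 300 CPM in WT FBS. Most of the difference between the paused groups was Col4a1, with a mean of 162 CPM in KO and 25.6 CPM in WT. Dab2 and Foxa2 were also higher in KO paused, whereas Lama1 (78.7 against 93.4 CPM), Sox7 (1.02 against 3.74 CPM) and Gata4 (0.251 against 1.04 CPM) were lower. Trophoblast markers summed to 133 to 194 CPM in KO FBS, against 13.2 to 18.7 CPM in WT FBS, most of it Krt8 and Krt18, and to 21.5 to 23.8 CPM in KO paused, against 8.19 to 9.54 CPM in WT paused. Fibroblast markers summed to 16.4 to 20.9 CPM in KO FBS, against 6.07 to 9.28 CPM in WT FBS. When paused their sums were 5.63 to 7.56 CPM in KO and 2.53 to 3.51 CPM in WT. Neural sums overlapped between genotypes, at 190 to 217 CPM in KO paused and 166 to 222 CPM in WT paused. Within them Sox1 was lower in KO paused (17.8 against 123 CPM), and the others, such as Tubb3 (132 against 59.6 CPM), were higher. The part of these markers in the results was not tested. WT FBS replicate 1 stood apart: 1560 genes differed by over 2-fold from its group mates, against 200 and 152 genes for replicates 2 and 3, and 39 of the 47 members were lower in it (median log2 -0.36). Replicate 1 of the other groups also had most members lower, by smaller medians. These were 40 members in KO FBS (log2 -0.1), 40 in KO paused (-0.1) and 32 in WT paused (-0.09). Because WT FBS replicate 1 deviated most, the counts of members called on the relative scale are also given without it. Replicate 1 of the other groups stayed in those fits.

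The bases just before the RefSeq start of transcription are shown for 5 members as a description, because E2F sites are known from promoters of replication genes. Whether such sites have a part in the changes below was not tested. Mcm6, Mcm5, Pola1 and Rrm2 were among the members lower in KO cells, and Dbf4 was higher. Each line holds the last 160 bases before the RefSeq start, 5′ to 3′ on the gene's strand (RefSeq, GRCm38.p6). The bases right after that start were found in a GENCODE M21 transcript for Pola1, Rrm2 and Dbf4. They were not found for Mcm6 and Mcm5, whose starts are therefore less certain. The windows are chr1:128359706-128359865, minus strand for Mcm6, chr8:75109349-75109508, plus strand for Mcm5, chrX:93632156-93632315, minus strand for Pola1, chr12:24708094-24708253, plus strand for Rrm2 and chr5:8422717-8422876, minus strand for Dbf4. Capitals mark an E2F motif (TTTCGCGC or TTTGGCGC on either strand) or a CCAAT box (CCAAT, read ATTGG on the other strand).
Mcm6: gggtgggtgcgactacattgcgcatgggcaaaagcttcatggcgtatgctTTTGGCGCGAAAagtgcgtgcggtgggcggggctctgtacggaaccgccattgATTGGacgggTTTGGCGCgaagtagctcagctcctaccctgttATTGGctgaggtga
Mcm5: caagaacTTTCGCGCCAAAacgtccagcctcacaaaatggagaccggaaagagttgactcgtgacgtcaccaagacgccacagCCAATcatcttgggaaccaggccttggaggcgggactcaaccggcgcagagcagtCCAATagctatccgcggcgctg
Pola1: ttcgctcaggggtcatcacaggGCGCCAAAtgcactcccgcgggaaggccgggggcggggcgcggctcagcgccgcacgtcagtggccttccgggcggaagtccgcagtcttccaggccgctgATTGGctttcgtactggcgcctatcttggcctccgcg
Rrm2: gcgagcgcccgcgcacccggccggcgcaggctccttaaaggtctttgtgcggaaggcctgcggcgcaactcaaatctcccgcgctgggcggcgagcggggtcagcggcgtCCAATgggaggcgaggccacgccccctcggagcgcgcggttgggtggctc
Dbf4: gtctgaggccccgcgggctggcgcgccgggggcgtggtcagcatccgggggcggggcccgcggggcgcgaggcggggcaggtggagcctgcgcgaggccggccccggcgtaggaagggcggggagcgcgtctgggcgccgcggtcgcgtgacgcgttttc

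The Mcm6 window held 3 E2F matches, of which a pair overlaps on opposite strands and reads as 1 run of capitals, and 2 CCAAT boxes. Mcm5 held such an overlapping pair and 2 CCAAT boxes, Pola1 held 1 of each motif, and Rrm2 held a CCAAT box alone. Dbf4 held neither. Over the full windows of 250 bases before to 50 after the start, 39 of the 47 members had an entry, and 10 of them (25.6%) held an E2F match, against 0.929% of the 27025 genes in the table. A CCAAT box was present in 23 of the 39 members (59%) and in 41.1% of all genes. The CHR element TTTGAA, a motif of genes that peak in G2 and M, was present in 7 members (17.9%) and in 20.2% of all genes. Within the 250 bases before the start alone, 5 members held an E2F match, among them Mcm6, Mcm5 and Pola1 shown above. The share of all genes was not counted for these bases alone. Of the 32 members with an entry that were lower in KO FBS than in WT FBS, 9 held an E2F match in the full window. So did 1 of the 4 that were not called and 0 of the 3 that were higher, counts too small to set the calls apart. These matches describe the letters in the windows and say nothing of binding.

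In FBS medium, replication genes were lower in KO cells than in WT cells almost throughout. Of the 47 members, 38 were lower, 3 were higher and 6 were not called (edgeR quasi-likelihood test, Benjamini-Hochberg adjusted p under 0.05), while 29.4% of all tested genes were called lower and 28.4% higher. The median log2 fold change of the members was -0.65, against -0.04 over all tested genes. All 6 MCM genes and all 9 polymerase and primase genes were lower, as were 7 of 9 licensing genes and 5 of 6 clamp and loader genes. In 34 members each KO FBS library lay below each WT FBS library, in 3 each lay above, and in 10 the groups overlapped, while 28.4% of all tested genes lay wholly below and 30.2% wholly above. Without WT FBS replicate 1, 41 members were lower and 3 higher, which included all of the calls above, and 34.9% of all tested genes were lower and 34.2% higher.

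**Figure D1:**
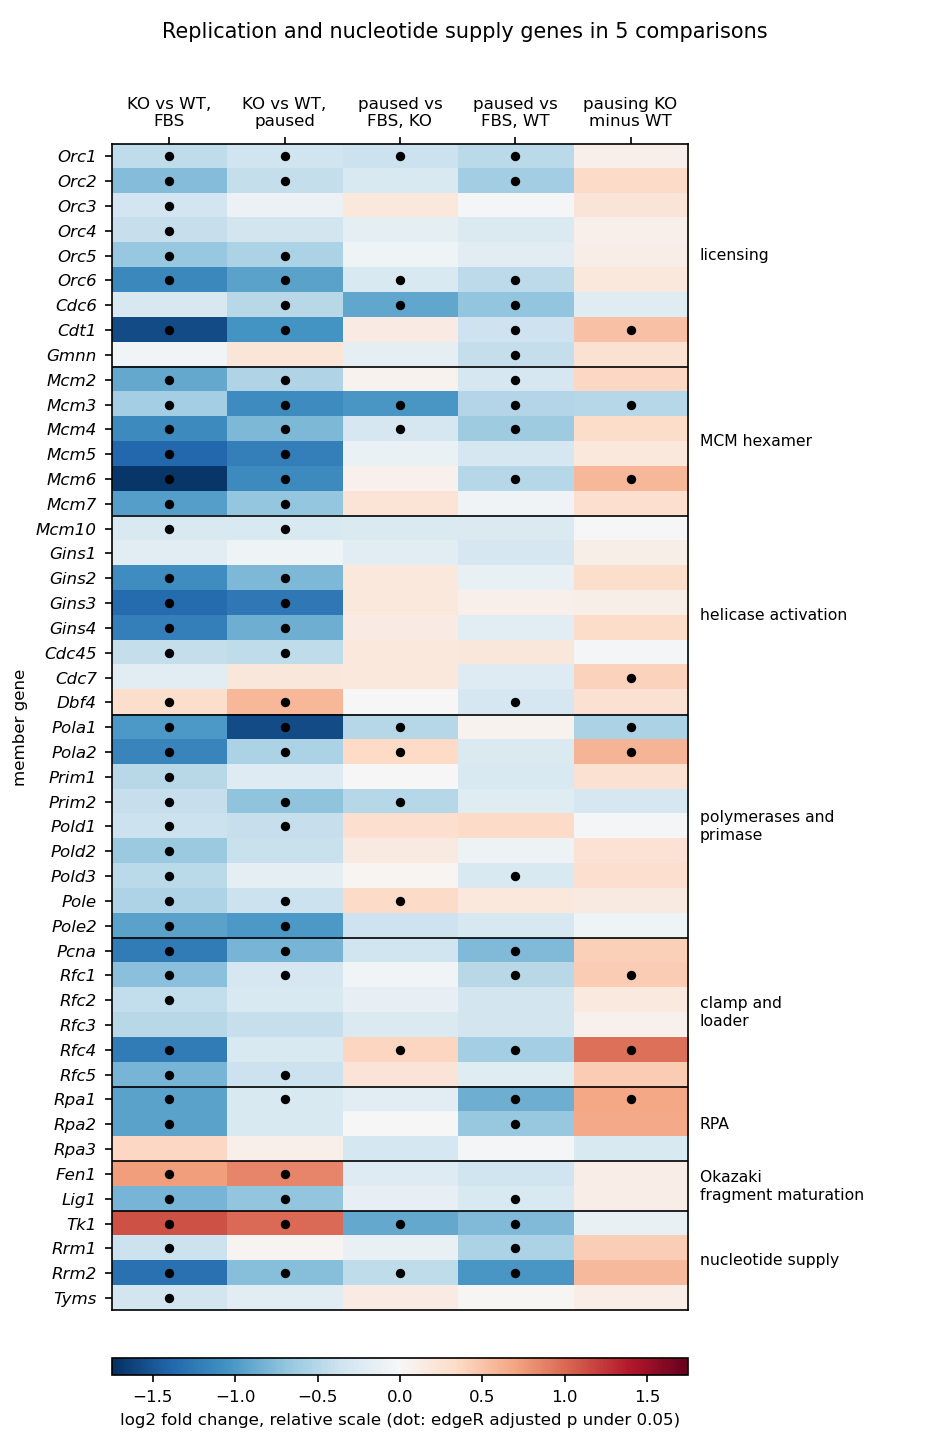
Log2 fold change on the relative scale of the 47 members (rows, by role) in 5 comparisons (columns); blue is lower and red higher in the first-named group, and a dot marks an edgeR adjusted p under 0.05. The first column is blue for 43 of 47 members, with Tk1, Fen1 and Dbf4 as the called exceptions, and the last column is the difference of both pausing effects, KO minus WT.

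The MCM proteins form the ring that unwinds DNA, and their genes were among the most abundant members. Per kilobase of exon, Mcm3, Mcm5 and Mcm6 stood at 112 ± 9.58, 60.8 ± 6.73 and 44.8 ± 1.69 CPM in KO FBS (SD, n = 3), against 170 ± 10.8, 158 ± 31 and 145 ± 14.8 CPM in WT FBS, where the order of these 3 genes lay within their spread. Mcm6 had 201, 209 and 217 CPM in KO FBS, against 597, 716 and 719 CPM in WT FBS. The groups did not overlap, and the change of -1.70 ± 0.09 was the largest loss among the members (adjusted p = 4.18e-08). Mcm5 followed with -1.38 ± 0.14, Mcm4 with -1.11 ± 0.11, Mcm7 with -0.97 ± 0.1 and Mcm2 with -0.89 ± 0.09, whereas Mcm3 changed least, by -0.60 ± 0.09. In all 6 genes each KO FBS library lay below each WT FBS library.

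Among the licensing factors, Cdt1, which brings MCM rings to the origin, had 59.2, 70.1 and 73.1 CPM in KO FBS, against 222, 189 and 189 CPM in WT FBS. Its change was -1.57 ± 0.11 (adjusted p = 2.61e-07) with no overlap between groups. Orc6, a subunit of the origin recognition complex, changed by -1.13 ± 0.1, and Orc1 to Orc5 by -0.76 to -0.33. Cdc6, the ATPase that works with Cdt1, and Gmnn, which encodes the Cdt1 inhibitor geminin, were not called (-0.28 ± 0.16 and -0.05 ± 0.13).

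GINS joins Cdc45 and the MCM ring in the running helicase. Gins4 had 29.5, 32.4 and 34.5 CPM in KO FBS, against 67.4, 75.9 and 75.7 CPM in WT FBS (-1.19 ± 0.09, adjusted p = 3.26e-07). Gins3 had 10, 7.95 and 10.1 CPM in KO FBS, against 24.4, 24 and 23.2 CPM in WT FBS (-1.35 ± 0.11, adjusted p = 8.21e-07). Neither gene overlapped between groups. Gins2 changed by -1.09 ± 0.17, but its exons share 2758 bases with Gse1 on the opposite strand, and Gse1 was lower too (-0.84 ± 0.08). With the strand setting of the counting unknown, a read from their shared bases could have been assigned to either gene. Gins1 was not called (-0.18 ± 0.2). Cdc45 changed by -0.42 ± 0.08 and Mcm10, a scaffold of helicase activation, by -0.27 ± 0.11.

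Polymerase alpha with primase lays the primers of each new strand, and its subunits Pola2 and Pola1 were the most changed of the polymerase genes (-1.16 ± 0.11 and -1.01 ± 0.1), ahead of the primase genes Prim1 and Prim2 (-0.48 ± 0.12 and -0.41 ± 0.09). Subunits of polymerase delta, which extends the lagging strand, changed by -0.65 to -0.37, and Pole and Pole2 of the leading-strand polymerase epsilon by -0.54 ± 0.1 and -0.93 ± 0.19. Pcna, the sliding clamp, changed by -1.23 ± 0.16. Pcna-ps1 and Pcna-ps2 are annotated pseudogenes whose near-identical sequence can take part of its reads. Of the clamp loader, Rfc4 changed by -1.22 ± 0.11 and Rfc3 was not called (-0.48 ± 0.22). Of RPA, which coats single-stranded DNA, Rpa1 and Rpa2 changed by -0.93 ± 0.09 and -0.93 ± 0.17, while the small subunit Rpa3 was not called (0.36 ± 0.2).

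In nucleotide supply the direction split. Rrm2, the cell cycle-regulated subunit of ribonucleotide reductase, had 157, 160 and 177 CPM in KO FBS, against 324, 452 and 450 CPM in WT FBS (-1.31 ± 0.14, adjusted p = 5.89e-06). Its partner Rrm1 changed by -0.37 ± 0.14 and Tyms, thymidylate synthase, which has the annotated pseudogene Tyms-ps, by -0.32 ± 0.09. Tk1, the thymidine kinase that salvages thymidine, had 82.1, 91.8 and 102 CPM in KO FBS, against 30, 46.2 and 49.7 CPM in WT FBS. Tk1 was thus higher in every KO library, by 1.12 ± 0.16 (adjusted p = 9.08e-05), against the direction of the other 3 supply genes.

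Fen1 and Dbf4 were the other members higher in KO cells. Fen1, the nuclease that trims Okazaki fragments, had 130, 144 and 150 CPM in KO FBS, against 62.4, 104 and 87.9 CPM in WT FBS (0.73 ± 0.14, adjusted p = 0.000781). Of its 2422 exonic bases, 2039 overlap genes on the opposite strand, mainly Tmem258, so its reads cannot be assigned with certainty; Tmem258 itself was not called (-0.16 ± 0.17). Lig1, the ligase that seals the same fragments, had 140, 155 and 164 CPM in KO FBS, against 256, 269 and 278 CPM in WT FBS (-0.81 ± 0.09). Dbf4 had 257, 265 and 273 CPM in KO FBS, against 198, 226 and 218 CPM in WT FBS (0.31 ± 0.07, adjusted p = 0.00369). Its kinase partner Cdc7 was not called (-0.20 ± 0.09). Fen1, Lig1 and Dbf4 did not overlap between groups.

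**Figure D2:**
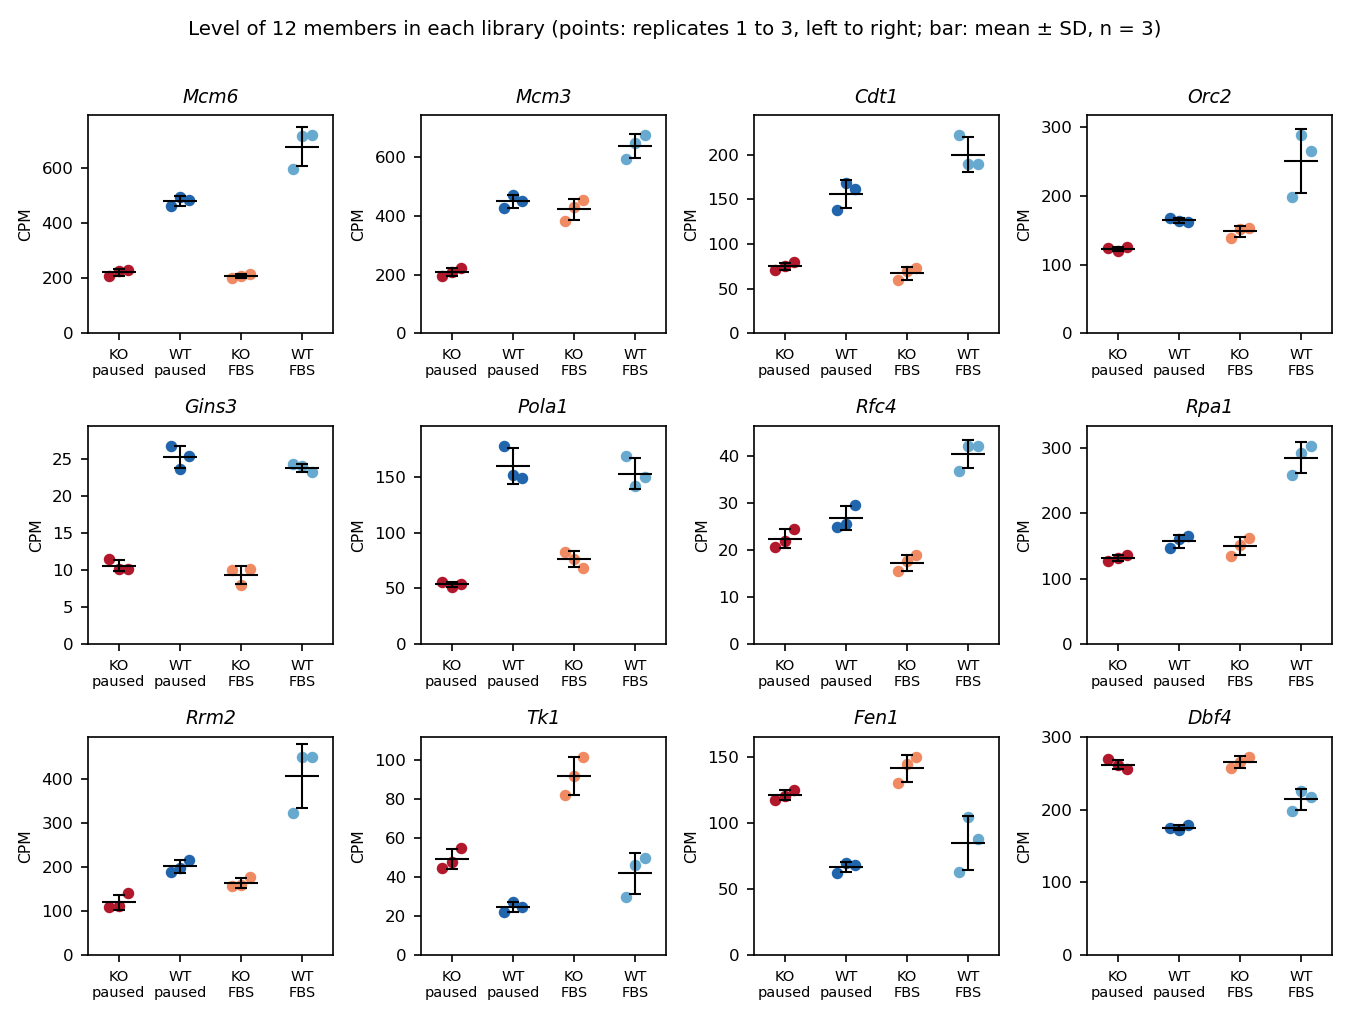
TMM-scaled CPM of 12 members in each library, with the groups KO paused, WT paused, KO FBS and WT FBS from left to right; points are replicates and bars mean ± SD (n = 3). Mcm6 stands at 201 to 217 CPM in KO FBS and at 597 to 719 CPM in WT FBS, whereas Tk1, Fen1 and Dbf4 are higher in KO than in WT cells in both conditions.

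Whole chromosomes and long regions also differed between the genotypes, so each member was set beside the median of its 49 nearest tested genes. In KO FBS against WT FBS these medians ran from -0.80 to 0.87. Of the 47 members 43 lay below the median of their neighbours, by a median of 0.68 in log2 (-0.68 as member minus neighbours). All 38 members called lower lay below their neighbours, 34 of them by over 0.3, and the 3 called higher lay above. Called members were picked for their change, so these counts are partly given by the selection, unlike the 43 of all 47. Chromosome 8, with a median of -0.46 over its tested genes, carries 6 members (Cdt1, Mcm5, Orc6, Gins2, Gins3 and Gins4). Chromosome 1, with a median of -0.28, carries Mcm3, Mcm6, Orc2 and Prim2. Orc6 had the lowest neighbours (-0.80), so the difference of this gene from its region was smaller than its fold change. Mcm3 lay in a region that was higher in KO FBS (0.58), and Pcna likewise (0.46).

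**Figure D3:**
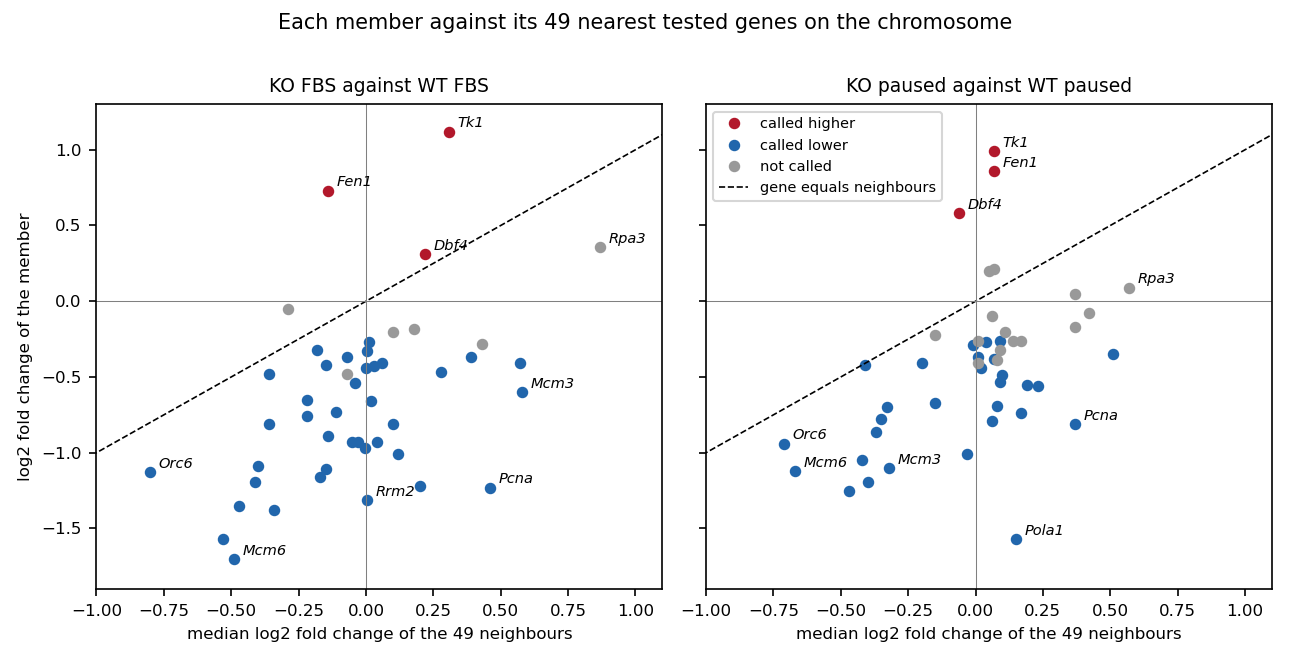
Log2 fold change of each member (vertical axis) against the median of its 49 nearest tested genes on the same chromosome (horizontal axis), for KO FBS against WT FBS and for KO paused against WT paused; the dashed line marks equality. In the left panel 43 of 47 members lie below the line, and in the right panel 42 do.

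Relative to the typical gene, paused KO cells also had less of most replication messages than paused WT cells, although per cell the member median was -0.04, against 0.39 over all tested genes, and ran from -0.26 without WT paused replicate 1 to 0.13 without WT paused replicate 2. Of the 47 members, 29 were lower, 3 were higher and 15 were not called, while 23.9% of all tested genes were called lower and 27.9% higher. Their median was -0.41, against 0.01 over all tested genes. Of the members, 28 were lower in both conditions, out of 38 in FBS and 29 when paused, and Tk1, Fen1 and Dbf4 were higher in both. The share of all tested genes called in both comparisons was not counted. No sample is shared by these comparisons, but both set E14 KO against E14 WT cells and use the same estimate of spread. Each KO paused library lay below each WT paused library in 38 members and above in 5, while 33% of all tested genes lay wholly below and 36.2% wholly above. Without WT FBS replicate 1, which enters only the shared estimate of spread, 38 members were lower and 5 higher, with 30.9% and 35.1% of all tested genes.

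The gene with the lowest p was Pola1, the catalytic subunit of polymerase alpha, which lies on the X chromosome. It had 56, 51.5 and 53.7 CPM in KO paused, against 178, 152 and 149 CPM in WT paused (-1.57 ± 0.11, adjusted p = 2.02e-07). Its 49 neighbours had a median of 0.15. Mcm6 had 207, 226 and 231 CPM in KO paused, against 462, 496 and 483 CPM in WT paused (-1.12 ± 0.09). Mcm3 had 196, 207 and 222 CPM in KO paused, against 425, 469 and 449 CPM in WT paused (-1.10 ± 0.09), and its neighbours had a median of -0.32. Gins3 had 11.5, 10.2 and 10.2 CPM in KO paused, against 26.8, 23.7 and 25.4 CPM in WT paused (-1.25 ± 0.11). None of these 4 genes overlapped between groups. Mcm6 and Mcm3 lie on chromosome 1 and Gins3 on chromosome 8, whose tested genes had medians of -0.44 and -0.43 in this comparison. All 6 MCM genes were again lower, with a median of -0.94.

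Tk1, Fen1 and Dbf4 were the members higher in KO paused cells. Tk1 had 44.7, 48 and 55 CPM in KO paused, against 22.1, 27.4 and 24.9 CPM in WT paused (0.99 ± 0.17, adjusted p = 0.000348). Fen1 had 117, 120 and 125 CPM in KO paused, against 62.1, 69.6 and 67.7 CPM in WT paused (0.86 ± 0.14). Dbf4 had 269, 262 and 256 CPM in KO paused, against 175, 172 and 179 CPM in WT paused (0.58 ± 0.08, adjusted p = 4.09e-05). The lowest KO library exceeded the highest WT library in all 3 genes. Members that were lower in FBS but not called when paused included Rfc4 (-0.26 ± 0.11), Rpa2 (-0.26 ± 0.17) and Rrm1 (0.05 ± 0.14).

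Pausing lowered a part of the set in WT cells. Of the 47 members, 21 were lower in WT paused than in WT FBS cells and 26 were not called, while 20.2% of all tested genes were called lower and 18% higher. The member median was -0.29, against -0.02 over all tested genes, and 41 members were below 0. None was called higher by edgeR, with 2 higher at an unadjusted p under 0.05 and 1 called by DESeq2. Without WT FBS replicate 1 the counts were 37 lower and 2 higher (Pole and Cdc45), with a member median of -0.40, while the shares of all tested genes were 31.7% lower and 28.2% higher. By role, 6 of 9 licensing genes, 4 of 6 MCM genes and 3 of 4 supply genes were lower, but 1 of 9 polymerase and primase genes and 1 of 8 helicase activation genes.

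Rpa1, the large subunit of RPA, had the lowest p. It had 147, 160 and 165 CPM in WT paused, against 258, 292 and 303 CPM in WT FBS (-0.86 ± 0.09, adjusted p = 4.56e-05). Rrm2 had 188, 199 and 217 CPM in WT paused, against 324, 452 and 450 CPM in WT FBS (-1.02 ± 0.14, adjusted p = 0.000196), the largest change of the members. Neither gene overlapped between groups. Mcm4 had 249, 251 and 238 CPM in WT paused, against 305, 408 and 419 CPM in WT FBS (-0.62 ± 0.11). Mcm3 changed by -0.51 ± 0.09 and Mcm6 by -0.50 ± 0.09, whereas Mcm7 was not called (-0.06 ± 0.1). Orc2 had 168, 163 and 161 CPM in WT paused, against 198, 288 and 265 CPM in WT FBS (-0.61 ± 0.12), and Rfc1, the large subunit of the clamp loader, had 172, 162 and 194 CPM in WT paused, against 267, 233 and 238 CPM in WT FBS (-0.48 ± 0.09). In Mcm4, Orc2 and Rfc1 each paused library lay below each FBS library. Over all members this held for 20, while 1 lay wholly above and 26 overlapped. Of all tested genes, 19.2% lay wholly below and 20.1% wholly above. The genes named here were picked for their low p, so their lack of overlap is partly given by that selection.

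Smaller changes were measured in the remaining role groups. Lig1 had 208, 217 and 240 CPM in WT paused, against 256, 269 and 278 CPM in WT FBS (-0.27 ± 0.09, adjusted p = 0.0324). Pold3, an accessory subunit of polymerase delta, had 81.5, 81.4 and 87 CPM in WT paused, against 101, 105 and 95.1 CPM in WT FBS (-0.27 ± 0.07). Dbf4 had 175, 172 and 179 CPM in WT paused, against 198, 226 and 218 CPM in WT FBS (-0.29 ± 0.08). The paused libraries were the lower ones without overlap, although the differences are small. Pcna changed by -0.77 ± 0.16 and Tk1 by -0.77 ± 0.17. Of all 47 members, 39 lay below the median of their 49 neighbours. The 21 called lower were all among them, which is partly given by their selection as lower.

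In KO cells members were called in both directions upon pausing. Of the 47, 9 were lower and 3 higher in KO paused than in KO FBS cells, while 19.4% of all tested genes were called lower and 23.3% higher, so that the share lower was near that of all genes. The member median was -0.11, against 0.03 over all tested genes. Of all 47 members, 27 lay below the median of their 49 neighbours, with a median difference of -0.06. Without WT FBS replicate 1, which is in neither group but enters the estimate of spread, 20 were lower and 7 higher, with 29.9% and 30.5% of all tested genes. With KO FBS replicate 3 or KO paused replicate 2 left out, 5 were lower, and without KO FBS replicate 1, 1 was higher. The fit of these 2 groups alone gave 21 lower and 9 higher, with 29.8% and 31.7% of all tested genes. In this comparison same-numbered libraries deviated together (each of the 3 pairs with r over 0.1), and with the replicate number as a block 10 members were lower and 5 higher, and per cell 41 were lower.

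Mcm3 had 196, 207 and 222 CPM in KO paused, against 382, 430 and 452 CPM in KO FBS (-1.02 ± 0.09, adjusted p = 4.44e-06). Prim2, the large primase subunit, had 25.6, 25.3 and 28.2 CPM in KO paused, against 36.9, 36.2 and 38.9 CPM in KO FBS (-0.50 ± 0.09). Both genes lie on chromosome 1 among neighbours that were also lower, with medians of -0.74 around Mcm3 and -0.85 around Prim2, so Prim2 lay above its region. Cdc6 had 34.9, 36.8 and 39.9 CPM in KO paused, against 69.3, 69.5 and 70.4 CPM in KO FBS (-0.91 ± 0.16), with a median of -0.58 around it. Tk1 had 44.7, 48 and 55 CPM in KO paused, against 82.1, 91.8 and 102 CPM in KO FBS (-0.90 ± 0.16, neighbours -0.29). The groups did not overlap in any of the 4, which were picked for their low p. Over all members, each KO paused library lay below each KO FBS library in 15 and above in 10, and in 22 the groups overlapped. Of all tested genes, 30.7% lay wholly below and 35% wholly above, so a lack of overlap alone does not set members apart here.

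The 3 members higher in KO paused cells belong to different complexes. Rfc4, a small subunit of the clamp loader, had 20.6, 22 and 24.5 CPM in KO paused, against 15.5, 17.6 and 18.9 CPM in KO FBS (0.37 ± 0.11, adjusted p = 0.0193). Pola2, the regulatory subunit of polymerase alpha, had 48, 49.7 and 47.3 CPM in KO paused, against 34.3, 39.9 and 39.5 CPM in KO FBS (0.35 ± 0.11). Pole, the catalytic subunit of polymerase epsilon, had 178, 188 and 190 CPM in KO paused, against 142, 154 and 143 CPM in KO FBS (0.34 ± 0.1). The paused libraries were higher without overlap, by less than 0.4 in log2, but 35% of all tested genes also lay wholly higher. Mcm6, with 207, 226 and 231 CPM in KO paused, against 201, 209 and 217 CPM in KO FBS, was not called (0.08 ± 0.09).

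An interaction term compared the pausing effects of KO and WT cells. It was called in 9 members, of which 7 had a higher effect in KO than in WT cells and 2 a lower one, while 9.61% of all tested genes were called higher and 8.26% lower. Over the members the median difference was 0.23, against 0.09 over all tested genes. Rfc4 had the largest difference, 0.96 ± 0.16 (adjusted p = 0.00175), with an effect of 0.37 ± 0.11 in KO and -0.59 ± 0.11 in WT cells. Rpa1 followed with 0.67 ± 0.13 (-0.18 ± 0.09 in KO and -0.86 ± 0.09 in WT), Pola2 with 0.60 ± 0.15 and Mcm6 with 0.58 ± 0.13. Cdt1, Rfc1 and Cdc7 differed by 0.51 ± 0.15, 0.44 ± 0.13 and 0.41 ± 0.12. Mcm3 and Pola1 went the other way (-0.50 ± 0.13 and -0.56 ± 0.15): Pola1 was lower in paused KO cells and hardly moved in WT cells (0.06 ± 0.1). The 49 neighbours of Mcm3 had a median interaction of -0.84, those of Pola1 of -0.02.

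The count of calls depended on single libraries. Without WT FBS replicate 1, 27 members had a higher effect in KO cells and 2 a lower one, among them Pcna (0.62 ± 0.09), Rrm2 (0.70 ± 0.12), Rpa2 (0.87 ± 0.1) and Rrm1 (0.60 ± 0.09), and the member median was 0.31. In that fit 24.8% of all tested genes were called higher and 17.3% lower. Leaving out KO FBS replicate 1 or 2, WT paused replicate 1, or any of the KO paused replicates left 4 higher; Rfc4, Rpa1, Mcm6 and Pola2 were called in each of these fits.

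**Figure D4:**
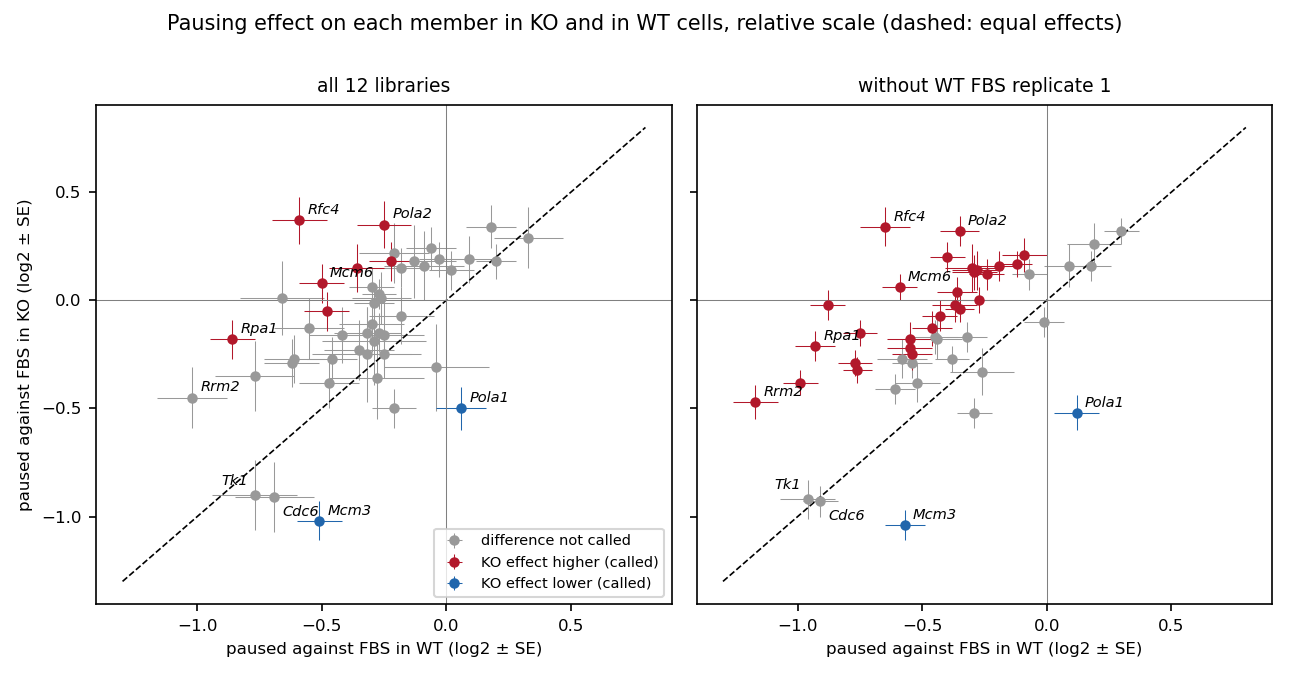
Pausing effect on each member in KO cells (vertical axis) against that in WT cells (horizontal axis), log2 ± SE on the relative scale, with all 12 libraries and without WT FBS replicate 1; colour marks members whose effects differed at an edgeR adjusted p under 0.05, and the dashed line marks equal effects. With all libraries 7 members are called above the line and 2 below, and without that library 27 above and 2 below.

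Together the 47 genes took 4260 ± 176 CPM in KO paused, 6200 ± 210 CPM in WT paused, 4690 ± 249 CPM in KO FBS and 8050 ± 859 CPM in WT FBS (SD, n = 3). Each KO library thus lay below each WT library, paused or not. In these bulk libraries, fewer cells in S phase and less of each message per cell cannot be told apart. RNA had been extracted from 200000 cells per sample before ERCC spike-in RNA was added, so counts set against ERCC counts give a level per cell. On that scale the members summed to 1540, 1980 and 1890 counts per 10000 ERCC counts in KO paused, 1470, 2520 and 2090 in WT paused, 2120, 4570 and 3400 in KO FBS, and 4500, 5230 and 6310 in WT FBS. The KO FBS libraries spread most, as did their ratio of gene to ERCC counts (68.5 ± 23.3, against 73.4 ± 1.15 in WT FBS).

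**Figure D5:**
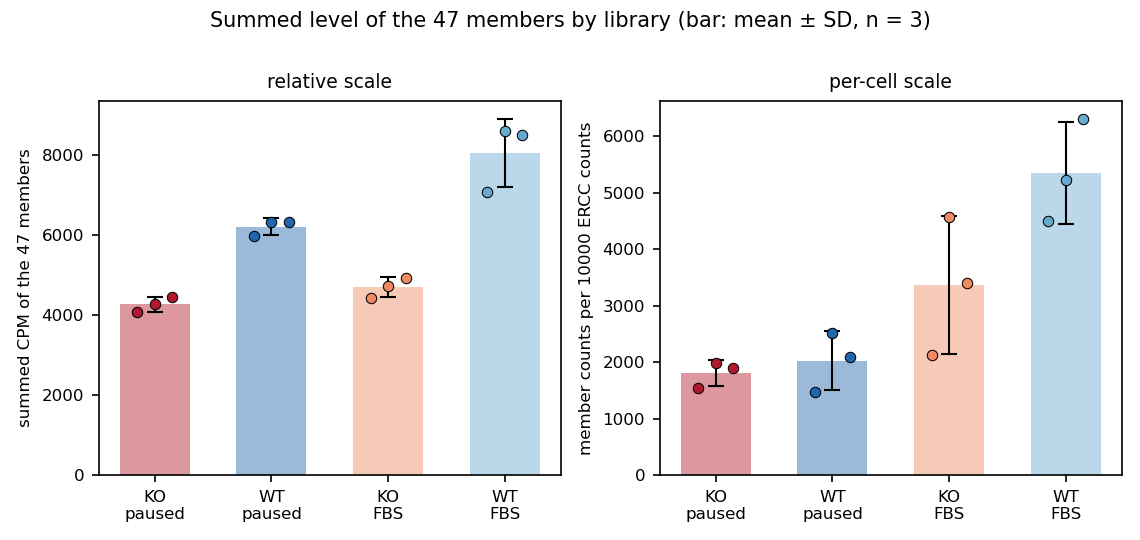
Summed level of the 47 members in each library as TMM-scaled CPM (left) and as counts per 10000 ERCC counts (right); bars are group means ± SD (n = 3) and points are libraries, with KO paused, WT paused, KO FBS and WT FBS from left to right. The KO paused and WT paused sums are apart on the left (4260 and 6200 CPM) and overlap on the right.

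Per cell, all 47 members were lower in WT paused than in WT FBS cells, while 68.8% of all tested genes were called lower and 1.15% higher. The member median was -1.31, against -1.05 over all tested genes. Rrm2 changed most (-2.05 ± 0.33), with 46.6, 79.4 and 71.8 counts per 10000 ERCC counts in WT paused, against 207, 275 and 335 in WT FBS, and Pold1 least (-0.68 ± 0.32). In KO paused against KO FBS cells 30 members were lower, while 45.7% of all tested genes were called lower and 2.45% higher, with a member median of -0.87 beside -0.72 over all genes. Mcm3 (-1.78 ± 0.34) and Tk1 (-1.66 ± 0.32) changed most there, and Rfc4 least (-0.40 ± 0.32, not called). In neither genotype was a member higher by edgeR, by DESeq2 or at an unadjusted p under 0.05 (0 in each). The KO count of 30 was 47 without KO FBS replicate 1, 12 without KO FBS replicate 2, 18 without KO FBS replicate 3 and 10 without KO paused replicate 1.

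Between genotypes the per-cell scale called fewer members. In FBS, 17 were lower and 2 higher in KO cells, against 9.81% and 19.1% of all tested genes, with Mcm6 (-1.59 ± 0.33), Cdt1 (-1.44 ± 0.32) and Gins3 (-1.29 ± 0.33) at the low end and Tk1 (1.23 ± 0.32) at the high end. The member median was -0.52, against 0.05 over all tested genes. It was -0.26 without KO FBS replicate 1 (0.27 over all genes) and -0.81 without KO FBS replicate 2 (-0.22 over all genes). Without WT FBS replicate 3 the lower count was 9 and without WT FBS replicate 2 it was 10, and without WT FBS replicate 1 or 2 or KO FBS replicate 2 or 3 the higher count was 1. When paused, Pola1 (-1.18 ± 0.32), Gins3 (-0.87 ± 0.33) and Mcm5 (-0.82 ± 0.33) were lower and Tk1 (1.35 ± 0.32), Fen1 (1.23 ± 0.32) and Dbf4 (0.96 ± 0.33) higher, against 5.62% and 27.1% of all tested genes. The median over all tested genes there was 0.39. Leaving out 1 library at a time, those of the FBS groups included, gave 1 to 6 lower and 2 to 3 higher. The interaction was called per cell by edgeR for 0 members, with 3 higher and 0 lower at an unadjusted p under 0.05 and 0 called by DESeq2, while 3.04% of all tested genes were called higher and 1.66% lower. Without KO FBS replicate 2 it was called higher in 4 members, and with a replicate block in 7. The 47 estimates had a median of 0.49, against 0.37 over all tested genes.

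Other genes of the same pathways were counted in lists kept apart from the members, each named gene being among the 4 called genes of its list with the lowest p. The shares of all tested genes called in each comparison, given above for the members, apply to these lists too. In KO FBS against WT FBS, 16 of 29 tested replisome and origin factors were lower (median -0.44), against 29.4% of all tested genes, among them Dtl, which marks Cdt1 for destruction at replicating DNA (-1.06 ± 0.07), Timeless of the fork protection complex (-1.24 ± 0.11) and the nuclease gene Dna2 (-1.21 ± 0.13). Of 16 dNTP supply genes 8 were lower and 2 higher, among them Dtymk, thymidylate kinase (-1.13 ± 0.15). Of 17 genes of purine and pyrimidine synthesis 10 were lower and 1 higher, with Atic (-1.23 ± 0.12) and Impdh2 (-1.25 ± 0.14) of the purine branch. Of 20 E2F and G1/S regulators 13 were lower and 1 higher, with E2f8 at -1.87 ± 0.12, E2f2 at -1.72 ± 0.22 and E2f4 at -1.40 ± 0.15. E2f2 encodes an activator of the family, whereas E2f4 and E2f8 are known chiefly as repressors. Of 20 G2/M genes 15 were lower and 1 higher (median -0.49), and of 10 checkpoint genes 6 were lower, with the kinase gene Atr at -0.60 ± 0.1.

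When paused, 23.9% of all tested genes were lower in KO than in WT cells and 27.9% higher. Replisome factors were lower in 14 and higher in 1 of 29, with Dtl at -1.10 ± 0.08, and E2F and G1/S regulators lower in 7 and higher in 3 of 20, with E2f2 at -1.67 ± 0.23. The G2/M genes had 4 lower and 4 higher (median 0.06), with the mitotic kinase gene Aurka at 0.54 ± 0.09. Checkpoint genes were lower in 1 of 10, dNTP supply genes lower in 6 and higher in 2 of 16, and de novo synthesis genes lower in 8 and higher in 2 of 17. Per cell, the median of all 6 lists lay above 0 in the same comparison: 0.04 for replisome factors, 0.16 for dNTP supply, 0.04 for de novo synthesis, 0.26 for E2F and G1/S regulators, 0.31 for checkpoint genes and 0.43 for G2/M genes, against 0.39 over all tested genes.

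Pausing lowered many nucleotide synthesis genes in both genotypes. In KO paused against KO FBS cells 9 of 17 de novo genes were lower and 1 higher (median -0.37), against 19.4% and 23.3% of all tested genes, and in WT paused against WT FBS cells 11 were lower and 1 higher (median -0.46), against 20.2% and 18%. Prps2, which makes the ribose phosphate donor of nucleotide synthesis, changed by -1.40 ± 0.2 in KO and -1.70 ± 0.21 in WT cells. The dNTP supply list had 7 lower and 2 higher of 16 in KO and 10 lower and 1 higher in WT cells. Of the 20 E2F and G1/S regulators, 4 were lower and 6 higher in KO cells, with the cyclin E gene Ccne2 at -1.07 ± 0.16, E2f8 at 0.79 ± 0.11, Tfdp2 at 0.74 ± 0.12 and the cyclin A gene Ccna2 at 0.37 ± 0.09, and 9 were lower and 2 higher in WT cells, with Ccne1 at -1.53 ± 0.29.

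The G2/M genes, which are read at the end of the cell cycle, went apart between genotypes. In KO paused against KO FBS cells 14 of 20 were higher and 1 lower (median 0.36), with Mki67 at 1.01 ± 0.1 and Cenpf at 0.84 ± 0.1, whereas in WT cells 2 were higher and 6 lower (median -0.16), with Aurka at -0.63 ± 0.09 and Plk1 at -0.55 ± 0.08. The interaction was called higher in 15 of the 20 (median 0.61), led by Plk1 (0.83 ± 0.11) and Cenpa (0.76 ± 0.11). Per cell the list median in KO cells was -0.40 beside -0.72 over all tested genes, and its interaction had 0 calls by edgeR and by DESeq2 and 10 higher at an unadjusted p under 0.05. Replisome factors had 5 higher and 1 lower of 29 in KO cells, which is below the shares of all genes, and 2 higher and 8 lower in WT cells, with an interaction of 0.87 ± 0.18 for Dna2 and 0.58 ± 0.11 for Wdhd1. Among dNTP supply genes the interaction was called in Rrm2b alone, the p53-induced small subunit of ribonucleotide reductase (-1.23 ± 0.18), opposite in sign to that of Rrm2, which was not called (0.57 ± 0.19).

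Leaving out WT FBS replicate 1 raised most list counts. In FBS 21 replisome factors, 14 E2F and G1/S regulators and 18 G2/M genes were then lower in KO cells, and for pausing 14 replisome factors, 12 regulators and 11 G2/M genes were lower in WT cells. In KO cells 7 replisome factors were then lower and 9 higher upon pausing. The interaction was called higher in 19 G2/M genes, 15 replisome factors, 11 de novo genes and 9 dNTP supply genes, beside 24.8% of all tested genes.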

How the data were processed

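The authors deposited whole-number counts of reads for each gene symbol, 92 ERCC rows included, and log2 values that the labels describe as scaled to cell number. For 3390 genes with high counts the deposited log2 values equalled log2 of the count plus 0.5 plus 1 constant per sample, and they entered 1 alternative only. Tools named in the submitters' processing notes are edgeR 3.32.1, Subread 1.5.0 with featureCounts, and Trim Galore 0.4.0, and the build is mm10. The aligner, the annotation and whether counting used strand were not given in the sources used here. Libraries were polyadenylated and directional, per the labels' protocols. Spike-in (2 µl at 1 in 100) was added to 10 µl of extracted RNA, so losses before that step are not corrected.

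The members, role groups, other lists and the rule for named genes were chosen with earlier results of these data known. Named with values per library were Mettl3, the member of each role group with the lowest p for WT pausing, and per comparison the 4 called members with the lowest p and up to 4 against the main direction. Genes passing filterByExpr (count minimum 10, total minimum 15) were tested on the deposited counts with edgeR 4.0.16 in R 4.3.3 (robust quasi-likelihood, 4 group means over all 12 libraries, Benjamini-Hochberg over 15281 genes, threshold 0.05). The relative scale used the total of gene counts with TMM factors, the per-cell scale the ERCC total with TMM factors over ERCC rows, whose error all genes of a library share. SE is the absolute log2 fold change divided by the square root of F. The scripts were tested on simulated counts. Neighbours and exon overlaps came from GENCODE M21 (GRCm38), in which 386 gene rows had no match. Alternatives were DESeq2 1.42.0, RLE size factors, no filter, only the groups compared, a replicate block, ERCC totals alone and leaving out each library. The main fit held no replicate term, and the labels do not say what a number shares. Deviations of same-numbered libraries correlated over 0 in 17 of 18 pairs. Every pair was over r = 0.1 between KO paused and KO FBS (0.35, 0.1 and 0.27). Between KO FBS and WT FBS the values were nearly as high (0.29, 0.1 and 0.21).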

Additional observations from a re-analysis of the deposited data

Results flagged for a closer look

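The pausing effect differed between KO and WT cells, by the interaction term of the edgeR fit on the relative scale, in 9 members. It was higher in 7 of them and lower in 2, while 9.61% of all tested genes were called higher and 8.26% lower. Taken over both directions, the share of members called was thus near that of all genes. As KO effect minus WT effect in log2, the difference was 0.96 for Rfc4, 0.67 for Rpa1, 0.6 for Pola2, 0.58 for Mcm6, 0.51 for Cdt1, 0.44 for Rfc1, 0.41 for Cdc7, -0.5 for Mcm3 and -0.56 for Pola1. In WT FBS replicate 1, 39 of the 47 members were lower than in the others of its group, and 27 members had a higher effect in KO cells when it was left out, beside 24.8% of all tested genes. Most members were also lower in replicate 1 of KO FBS (40), KO paused (40) and WT paused (32), by smaller medians. Those libraries stayed in that fit. Mcm3 lies in a region of chromosome 1 whose tested genes had a median difference of -0.84. On the per-cell scale none of the 9 passed an adjusted p of 0.05 with edgeR (0 calls, 3 members higher at an unadjusted p under 0.05 and 0 with DESeq2).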

How the results depend on the processing

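No member's direction was reversed in 3782 comparisons of calls with an alternative; 3430 kept their side of the threshold and 352 lost it. On the relative scale 36 of 41 calls held under every alternative in KO FBS against WT FBS, 25 of 32 in KO paused against WT paused, 13 of 21 for pausing in WT cells, 5 of 12 in KO cells and 4 of 9 for the interaction. Calls lost somewhere were Mcm10, Orc4, Pold1, Rfc2 and Rrm1 in FBS. Between paused genotypes they were Cdc6, Mcm10, Orc1, Pold1, Rfc1, Rfc5 and Rpa1. For WT pausing they were Cdt1, Dbf4, Gmnn, Lig1, Mcm2, Pold3, Rpa2 and Rrm1, for KO pausing Mcm4, Orc1, Orc6, Pola2, Pole, Rfc4 and Rrm2, and for the interaction Cdc7, Cdt1, Mcm3, Pola1 and Rfc1. The causes were not tested.

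With DESeq2, pausing in WT cells gave 1 member higher and the interaction 11 higher. With only the groups compared in the fit, WT pausing gave 13 lower, KO pausing 21 lower and 9 higher, and per cell KO FBS against WT FBS gave 7 lower and 1 higher and KO paused against WT paused 6 lower. Deviations of same-numbered libraries correlated at -0.03 to 0.36 over 18 pairs, 17 of them over 0 and 13 over 0.1, against -0.34 to 0.25 between other numbers, and 7 of 12 libraries matched best with their own number in every other group. All 3 pairs were over 0.1 for KO pausing (0.35, 0.1 and 0.27), and KO FBS against WT FBS came close (0.29, 0.1 and 0.21). A shared deviation by number is thus a hint in other comparisons too, which the labels do not explain. With a replicate block, WT pausing gave 26 lower and 2 higher, KO pausing 10 lower and 5 higher and the interaction 10 higher. Per cell the block gave 41 lower for KO pausing, 25 lower in FBS, 8 lower and 5 higher between paused genotypes, and 7 higher for the interaction, against 0 without it.

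Leaving out each library in turn, on the relative scale, WT pausing gave 17 to 37 lower and 0 to 2 higher, KO pausing 5 to 20 and 1 to 7, KO FBS against WT FBS 34 to 41 and 3 to 4, KO paused against WT paused 22 to 38 and 3 to 5, and the interaction 0 to 2 and 4 to 27. The highest of these counts came without WT FBS replicate 1, except 4 higher in KO FBS, which came without WT FBS replicate 2. Per cell the ranges were 44 to 47 lower for WT pausing, 10 to 47 for KO pausing, 9 to 24 lower and 1 to 3 higher in FBS, 1 to 6 and 2 to 3 when paused, and 0 to 4 higher for the interaction. The authors' own cell-number scaling, chosen as an alternative after seeing the data, gave per cell 47 and 25 lower for WT and KO pausing and 17 and 2 lower between genotypes in FBS and paused. Depth limits little here, since every member had at least 119 counts in each library; the spread of ERCC counts in KO FBS limits the per-cell scale.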
